A study of Rattus norvegicus with 12 samples.

Results

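The IL-1 and IL-33 ligands and receptors are described here in rat nucleus pulposus cells, which fill the soft centre of the intervertebral disc. The group was set by gene name, without regard to its values, and comprises 8 of the 21071 genes listed: the ligands Il1a, Il1b and Il33, the receptor antagonist Il1rn, and the receptor genes Il1r1, Il1r2, Il1rl1 and Il1rap. RNA was sequenced in 12 libraries, 3 in each of 4 groups, and every group had received exosomes, the small vesicles that cells shed. They were NPPC-Exo, for which the labels give 50 µg/mL and no expansion of the name, or miR-Exo, the same exosomes with the microRNA miR-221-3p overexpressed. The groups were erastin with miR-Exo, erastin with NPPC-Exo, miR-Exo alone and NPPC-Exo alone. Erastin blocks cystine import and sets off ferroptosis, an iron-dependent form of cell death. It was given for 48 h at between 0.1 and 5 µM, with no dose stated for a single library, and its libraries are called Model in the deposited table. The labels give no strain, sex or age and name no separate cultures behind the 3 replicates, so p-values measure the spread between libraries, which may be technical. None of the groups is labelled as free of exosomes or as given a vehicle.

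IL-1α and IL-1β, the products of Il1a and Il1b, bind the receptor of Il1r1, which recruits the accessory chain of Il1rap and signals through MyD88 to NF-κB and MAP kinases. Il1rn encodes a ligand that occupies the receptor without recruiting the accessory chain, and Il1r2 a decoy receptor that lacks the signalling domain. IL-33, an alarmin held in the nucleus, binds the ST2 receptor of Il1rl1, which uses the same accessory chain. Il1rl1 also gives a short secreted form that traps IL-33, and in mouse fibroblasts the gene was first known for its response to serum. In the disc, IL-1 is known for driving matrix breakdown.

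Library totals ran from 54616827 to 68865720 counts. Of 12 nucleus pulposus markers, 10 had a row, and 8 of these were at 1 CPM (counts relative to scaled library size) or more in both groups without erastin. Their summed level was 880 to 948 CPM with erastin and miR-Exo and 1139 to 1285 CPM with erastin and NPPC-Exo, against 7111 to 8613 CPM with miR-Exo and 7131 to 8158 CPM with NPPC-Exo, and this sum was mostly Acan, with Col2a1 next. Of the 9 markers tested, 2 rose (Cd24 and Car12) and 5 fell with erastin under miR-Exo, and 3 rose (Cd24, Foxf1 and Cdh2) and 4 fell under NPPC-Exo. In such bulk libraries, fewer cells of a type and less RNA per cell cannot be told apart. A gene is said to have risen, fallen or changed where its adjusted p was under 0.05 in edgeR's quasi-likelihood test over 15650 genes. Fold changes are given as log2 ± SE, and levels as CPM with n = 3 libraries per group.

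The promoters of both IL-1 ligands and of the receptor genes that bind IL-1 and IL-33 are shown, because the ligands rose with erastin while these receptor genes moved in opposite directions. They come from RefSeq on the GRCr8 build, run from 250 bases before to 50 bases after the start site, and were found for 7 of the 8 members. Capitals mark matches on either strand to the NF-κB motif, the AP-1 motif TGANTCA, the antioxidant response element core TGACNNNGC and TATAAA. The last was added after the sequences had been seen, and no matches overlapped.
Il1a, chr3:136989968-136990267, minus strand: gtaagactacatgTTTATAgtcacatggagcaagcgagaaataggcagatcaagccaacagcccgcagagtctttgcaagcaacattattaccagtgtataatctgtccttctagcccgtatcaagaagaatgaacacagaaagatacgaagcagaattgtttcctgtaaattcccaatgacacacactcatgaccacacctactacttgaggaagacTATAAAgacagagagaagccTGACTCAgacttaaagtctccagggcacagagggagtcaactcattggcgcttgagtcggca
Il1b, chr3:137036532-137036831, minus strand: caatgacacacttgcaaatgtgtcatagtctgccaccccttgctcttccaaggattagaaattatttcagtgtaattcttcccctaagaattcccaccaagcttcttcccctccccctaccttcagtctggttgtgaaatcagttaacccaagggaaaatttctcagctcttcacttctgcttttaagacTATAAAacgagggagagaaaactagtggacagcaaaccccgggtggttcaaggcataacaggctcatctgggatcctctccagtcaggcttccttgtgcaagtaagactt
Il1r1, chr9:50034133-50034432, plus strand: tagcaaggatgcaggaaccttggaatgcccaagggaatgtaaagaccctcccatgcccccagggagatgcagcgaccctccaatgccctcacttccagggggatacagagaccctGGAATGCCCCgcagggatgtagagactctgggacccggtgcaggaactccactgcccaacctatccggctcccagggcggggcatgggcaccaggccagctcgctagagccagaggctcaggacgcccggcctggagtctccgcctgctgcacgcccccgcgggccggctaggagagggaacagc
Il1rl1, chr9:50203388-50203687, plus strand: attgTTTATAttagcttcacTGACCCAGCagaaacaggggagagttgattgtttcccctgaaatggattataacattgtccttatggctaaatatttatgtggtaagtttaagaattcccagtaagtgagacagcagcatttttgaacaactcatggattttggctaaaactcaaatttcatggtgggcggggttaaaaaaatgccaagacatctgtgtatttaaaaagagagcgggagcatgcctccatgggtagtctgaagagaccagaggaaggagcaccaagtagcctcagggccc

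In the window of Il1a an AP-1 match began at base -12 from the start site and TATAAA matches at bases -32 and, on the opposite strand, -237. Il1b held a TATAAA match at base -60 and none of the other motifs. The window of Il1r1 had an NF-κB match at base -135, and that of Il1rl1 an antioxidant core at base -230 and a TATAAA match on the opposite strand at base -246. The 2 windows listed for Il1rap overlap and share a single NF-κB match, gggaagcccc, at the same site. The window of Il1rn and 1 of the 2 windows of Il33 held TATAAA alone, and the other window of Il33 held no match. Among all 33469 windows of this length, 7.51% held the NF-κB motif, 7.33% the AP-1 motif, 12.1% the antioxidant core and 14.2% TATAAA, so matches of this kind are common.

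Among the ligands, Il1a had the highest level once erastin was present. It stood at 21.6, 25.8 and 20.3 CPM with erastin and miR-Exo, at 7.45, 8.98 and 10.2 CPM with erastin and NPPC-Exo, at 0.173, 0 and 0.268 CPM under miR-Exo alone, and at 0.232, 0.339 and 0 CPM with NPPC-Exo. Every erastin library was above every library without it, the 2 erastin groups did not overlap, and the 2 groups without erastin did. With erastin Il1a rose by 7.21 ± 0.56 under miR-Exo (adjusted p 2.13e-07) and by 5.54 ± 0.55 under NPPC-Exo (adjusted p 2.23e-06), and these fold changes were above those of 99.6% and 98.8% of the genes tested.

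Low counts in this table carry an uncertainty beyond counting. The values of 0 for Il1a stand beside 10 to 18 counts in the other libraries of the same groups. Among genes whose highest library of a group had 10 to 20 counts, 48.3% with miR-Exo and 51.4% with NPPC-Exo had a 0 in another library of that group. A 0 listed here may thus stand for more than a count of 0 allows.

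Il1b, the other ligand of the IL-1 receptor, was listed at 0 in all 6 libraries without erastin. With erastin and miR-Exo it had 1.20, 1.30 and 1.16 CPM (81, 89 and 75 counts), and with erastin and NPPC-Exo 0.206, 0.545 and 0.386 CPM (12, 36 and 26 counts). It rose with erastin under miR-Exo (adjusted p 6.64e-05) and under NPPC-Exo (adjusted p 0.000385). From a limit of 3 counts per library, which covers counting error only, the rise was at least 24.3-fold under miR-Exo and at least 6.92-fold under NPPC-Exo. Il1b was tested only because of its counts in the erastin groups, so its calls had to be rises.

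With erastin present, miR-Exo was set against NPPC-Exo for the same ligands. Il1a was higher with miR-Exo by 1.35 ± 0.38 (adjusted p 0.0165). That call was lost without erastin and NPPC-Exo replicate 1 (adjusted p 0.0716) or 2 (0.0583), without erastin and miR-Exo replicate 1 (0.0540) or 2 (0.0737), and in DESeq2 (0.370), while its value stayed between 1.21 and 1.45 over all alternatives. Il1b was 1.68 ± 0.58 higher, with groups that did not overlap, and narrowly missed the threshold (adjusted p 0.0546). Over its alternatives the adjusted p of Il1b ran from 4.00e-05 to 0.173, and it passed in 12 of 21: in DESeq2 (0.0320), with library size alone (0.0371), with halved counts (0.0219), in a fit of only those groups (0.0105), in both fits on FPKM, and without any 1 of the 6 libraries of NPPC-Exo and miR-Exo (0.0429 to 0.0478). Without erastin Il1a had a log2 fold change of -0.33 ± 0.81 (adjusted p 0.852), a value whose sign turned when NPPC-Exo replicate 2 or miR-Exo replicate 2 was left out. Il1b was at 0 in both of those groups and has no fold there.

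**Figure D1:**
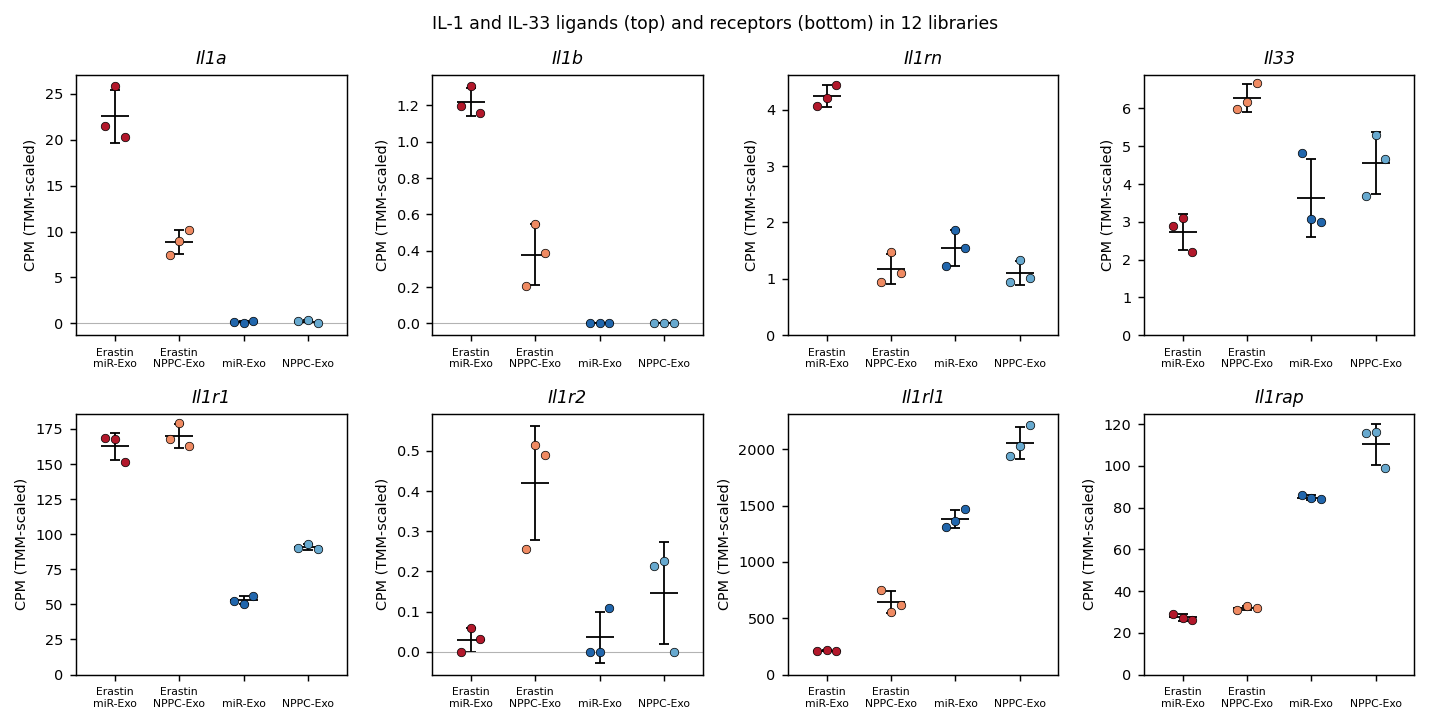
CPM, scaled by trimmed means of M values, of the 8 members in each of 12 libraries, in the order erastin with miR-Exo, erastin with NPPC-Exo, miR-Exo and NPPC-Exo. Points are libraries and bars the mean ± SD (n = 3). Il1a and Il1b are near 0 in the 6 libraries without erastin, and Il1rl1 is at 206 to 218 CPM with erastin and miR-Exo, against 1937 to 2215 CPM with NPPC-Exo.

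Il1rn, the antagonist of both IL-1 forms, was high in a single group. It had 4.07, 4.21 and 4.44 CPM with erastin and miR-Exo, 0.942, 1.47 and 1.10 CPM with erastin and NPPC-Exo, 1.22, 1.87 and 1.54 CPM under miR-Exo alone, and 0.945, 1.34 and 1.01 CPM with NPPC-Exo. The lowest library of erastin with miR-Exo was above the highest of the other groups, and those 3 groups overlapped one another.

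Il1rn rose with erastin under miR-Exo by 1.45 ± 0.23 (adjusted p 0.000164). Under NPPC-Exo its log2 fold change was 0.09 ± 0.24 (adjusted p 0.792, 95% interval -0.43 to 0.61). The difference between these effects was 1.36 ± 0.33 (adjusted p 0.0193), and it missed the threshold without NPPC-Exo replicate 2 or without erastin and NPPC-Exo replicate 3 (adjusted p 0.0529 each). Between the kinds of exosome, Il1rn was 1.85 ± 0.24 higher with miR-Exo under erastin (adjusted p 7.41e-05) and had 0.49 ± 0.24 without erastin (adjusted p 0.217). Levels compared per length, in FPKM, put Il1a above its antagonist under erastin: the ratio of Il1a to Il1rn was 7.27 to 9.79 with erastin and miR-Exo and 9.78 to 14.9 with erastin and NPPC-Exo, against 0 to 0.269 with miR-Exo and 0 to 0.385 with NPPC-Exo.

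Il33 behaved unlike the IL-1 ligands. Its levels were 2.90, 3.09 and 2.21 CPM with erastin and miR-Exo, 5.98, 6.17 and 6.67 CPM with erastin and NPPC-Exo, 4.83, 3.08 and 3.01 CPM under miR-Exo alone, and 3.67, 5.31 and 4.67 CPM with NPPC-Exo. Erastin with NPPC-Exo was the highest group and overlapped no other; the groups next to each other below it, NPPC-Exo, miR-Exo and erastin with miR-Exo, overlapped.

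Under erastin, Il33 was lower with miR-Exo than with NPPC-Exo by a log2 fold change of -1.20 ± 0.21 (adjusted p 0.000875). Without erastin this was -0.32 ± 0.21 (adjusted p 0.372). Erastin gave -0.41 ± 0.21 under miR-Exo (adjusted p 0.128) and 0.46 ± 0.21 under NPPC-Exo (adjusted p 0.0906), and the difference of these effects, -0.88 ± 0.30, was not called (adjusted p 0.0716). The value under NPPC-Exo passed the threshold with library size alone, where it was 0.75 ± 0.21 (adjusted p 0.00789), on FPKM, in a fit of only those groups (0.0485) and without miR-Exo replicate 1 (0.0457).

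Among the receptor genes, Il1rl1 had the highest level per length in every group. Its level was 64.4, 67.3 and 63.2 FPKM with erastin and miR-Exo, 214.7, 162.8 and 177.0 FPKM with erastin and NPPC-Exo, 322.9, 350.9 and 366.2 FPKM with miR-Exo, and 457.6, 482.4 and 526.1 FPKM with NPPC-Exo. With NPPC-Exo this was rank 82 of the 21071 genes listed, with miR-Exo rank 134, with erastin and NPPC-Exo rank 300, and with erastin and miR-Exo rank 1026. The deposited table lists 2 transcripts for the gene and a single count, so the membrane and the secreted form of ST2 were not separated.

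In CPM, Il1rl1 stood at 209, 218 and 206 with erastin and miR-Exo, at 753, 559 and 618 with erastin and NPPC-Exo, at 1311, 1367 and 1469.5 with miR-Exo, and at 1937, 2028 and 2215 with NPPC-Exo. No 2 of the 4 groups overlapped. Il1rl1 fell by 2.71 ± 0.09 on the log2 scale with erastin under miR-Exo (adjusted p 8.84e-11) and by 1.68 ± 0.09 under NPPC-Exo (adjusted p 6.89e-09). The fall was larger under miR-Exo, with a difference of -1.03 ± 0.13 (adjusted p 0.000553). It was also lower with miR-Exo than with NPPC-Exo, by -1.61 ± 0.09 with erastin (adjusted p 1.43e-07) and by -0.58 ± 0.09 without it (adjusted p 0.0013). These calls and their direction held under all alternatives tried.

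Il1rap, the accessory chain that the IL-1 and IL-33 receptors share, had the same order of groups. It stood at 29.2, 27.0 and 26.1 CPM with erastin and miR-Exo, at 31.0, 32.9 and 31.7 CPM with erastin and NPPC-Exo, at 86.1, 84.5 and 83.9 CPM under miR-Exo alone, and at 116, 116 and 98.9 CPM with NPPC-Exo. The groups did not overlap. Il1rap fell with erastin by 1.63 ± 0.07 under miR-Exo (adjusted p 5.94e-10) and by 1.79 ± 0.07 under NPPC-Exo (adjusted p 3.14e-10), and the difference of 0.16 ± 0.10 was not called (adjusted p 0.306, 95% interval -0.05 to 0.37).

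Between the kinds of exosome Il1rap differed less. It was lower with miR-Exo without erastin, with -0.38 ± 0.07 (adjusted p 0.00344). With erastin the value was -0.22 ± 0.07 (adjusted p 0.0303), and this call was lost with library size alone (-0.11 ± 0.07, adjusted p 0.241), on FPKM, and without erastin and NPPC-Exo replicate 2 (adjusted p 0.0730) or 3 (0.0536) or erastin and miR-Exo replicate 2 (0.0645) or 3 (0.0695).

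Il1r1, the signalling receptor of IL-1, went the opposite way from its accessory chain with erastin. It had 169, 168 and 151 CPM with erastin and miR-Exo, 167, 179 and 163 CPM with erastin and NPPC-Exo, 52.8, 50.2 and 56.2 CPM under miR-Exo alone, and 90.3, 93.3 and 89.3 CPM with NPPC-Exo. The erastin groups overlapped each other and lay above both groups without erastin, and miR-Exo lay below NPPC-Exo.

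Il1r1 rose with erastin by 1.62 ± 0.06 under miR-Exo (adjusted p 2.20e-10) and by 0.90 ± 0.06 under NPPC-Exo (adjusted p 5.72e-08), a difference of 0.71 ± 0.09 (adjusted p 0.000505). Without erastin it was lower with miR-Exo, by -0.78 ± 0.06 (adjusted p 8.18e-06). With erastin the exosomes differed by -0.06 ± 0.06 (adjusted p 0.48, 95% interval -0.19 to 0.07), and that value turned to 0.04 with library size alone and on FPKM. These comparisons share libraries: the lower start with miR-Exo enters both the larger rise and the difference without erastin.

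**Figure D2:**
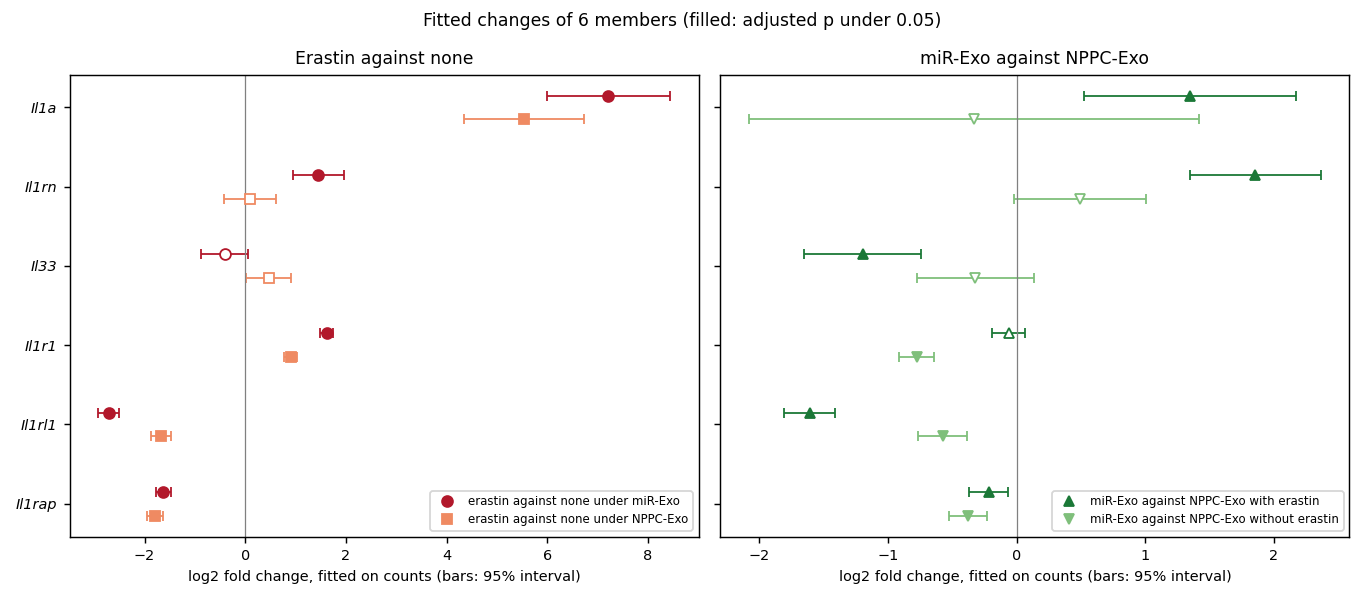
Fitted log2 fold changes of 6 members on counts, with 95% intervals, for erastin against none (left) and miR-Exo against NPPC-Exo (right). Filled symbols had an adjusted p under 0.05. Il1a and Il1r1 lie right of 0 with erastin under both exosomes, Il1rl1 and Il1rap left of it. Il1b and Il1r2 are not drawn, since their groups held 0 or few counts.

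Within a library the balance of these receptors moved. The ratio of Il1rl1 to Il1r1 in FPKM was 1.38 to 1.52 with erastin and miR-Exo and 3.47 to 5.01 with erastin and NPPC-Exo, against 27.7 to 30.4 with miR-Exo and 23.9 to 27.6 with NPPC-Exo. Il1rl1 made up 53.4% to 55.8% of the summed FPKM of the 4 receptor genes with erastin and miR-Exo, 74.0% to 80.4% with erastin and NPPC-Exo, 90.5% to 91.4% with miR-Exo and 90.5% to 92.4% with NPPC-Exo. For Il1rap against Il1r1 the ratio was 0.187 to 0.201 with erastin and miR-Exo and 0.214 to 0.227 with erastin and NPPC-Exo, against 1.74 to 1.96 with miR-Exo and 1.29 to 1.49 with NPPC-Exo. Per length, the accessory chain was thus above Il1r1 in the libraries without erastin and below it in those with erastin.

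**Figure D3:**
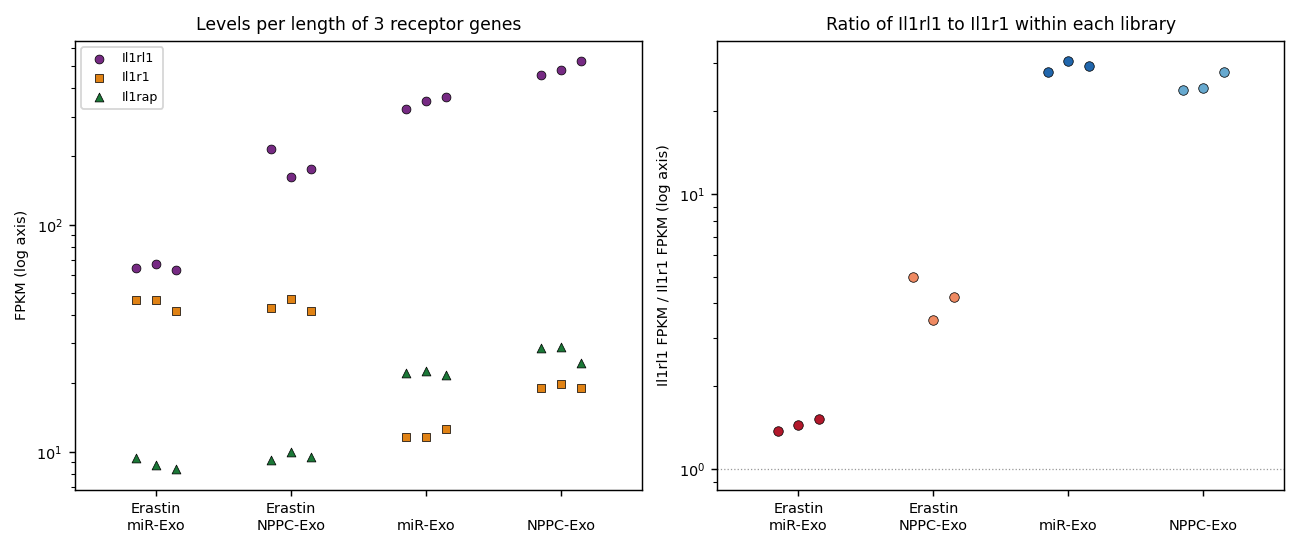
FPKM of Il1rl1, Il1r1 and Il1rap in each library (left, log axis) and the ratio of Il1rl1 to Il1r1 within each library (right, log axis, dotted line at 1). The ratio lies at 23.9 or more in the 6 libraries without erastin and at 5.01 or less in the 6 with it.

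Il1r2, the decoy receptor, was close to the limit of detection. It had 0, 4 and 2 counts with erastin and miR-Exo, 15, 34 and 33 with erastin and NPPC-Exo, 0, 0 and 7 with miR-Exo, and 12, 12 and 0 with NPPC-Exo. The libraries of erastin with NPPC-Exo were the highest, at 0.257 to 0.514 CPM, and the other groups overlapped. None of its comparisons was called. Under NPPC-Exo its log2 fold change with erastin was 1.51 ± 1.24 (adjusted p 0.362), which passed the threshold in 2 of 20 alternatives. With erastin it had a log2 fold change of -3.73 ± 1.41 for miR-Exo against NPPC-Exo (adjusted p 0.0613), which passed the threshold in DESeq2 (adjusted p 0.0386), on FPKM, in a fit of only those groups and without NPPC-Exo replicate 3. Il1r2 passed the filter only because of its counts with erastin and NPPC-Exo, its highest group. That favours a rise with erastin under NPPC-Exo and a lower value with miR-Exo under erastin, so the passing alternatives are not read as support. A limit of 3 counts in a library came to 0.0440 to 0.0565 CPM.

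Counted together, 4 of the 8 members rose and 2 fell with erastin under miR-Exo, where 49.1% of all genes tested changed, 24.7% upward and 24.4% downward. Under NPPC-Exo 3 rose and 2 fell, where 43.6% of genes changed, 21.5% upward and 22.1% downward. Both counts of rises include Il1b, whose calls with erastin had to be rises. For miR-Exo against NPPC-Exo, 2 members were higher and 3 lower with erastin, where 31.3% of genes changed, 15.6% upward and 15.8% downward. That count of 5 was 3 without erastin and NPPC-Exo replicate 2, or without erastin and miR-Exo replicate 2. Without erastin 0 of the 7 members with a value were higher and 3 lower, all of them receptor genes (Il1r1, Il1rl1 and Il1rap), where 10.7% of genes changed, 4.15% upward and 6.52% downward. The effect of erastin differed between the kinds of exosome for 3 members, Il1rn and Il1r1 upward and Il1rl1 downward, where 12.8% of genes differed, 5.81% upward and 7.01% downward. The libraries of the groups compared did not overlap for 6 of 8 members with erastin under miR-Exo (58.4% of genes), 7 under NPPC-Exo (53.6%), 7 for the exosomes with erastin (48%) and 3 without it (28.8%). Il1b is in each of these counts but the last, and Il1r2 in those of 7. Both genes passed the filter only through erastin libraries.

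The receptor genes Il1r2, Il1r1, Il1rl2, Il1rl1, Il18r1 and Il18rap lie in this order on chromosome 9 in RefSeq's annotation, with LOC120094675 and H3f3al3 between Il1r2 and Il1r1. The receptor genes of this row moved in different directions. Il1rl2, the IL-36 receptor, lies between Il1r1 and Il1rl1. It had 34.6 ± 1.68 CPM with erastin and miR-Exo, 65.6 ± 3.54 with erastin and NPPC-Exo, 43.4 ± 0.87 with miR-Exo and 72.6 ± 1.73 with NPPC-Exo. Il1rl2 was lower with miR-Exo by -0.92 ± 0.06 with erastin (adjusted p 2.39e-07) and by -0.74 ± 0.06 without it (adjusted p 7.87e-06), and with erastin it fell by 0.32 ± 0.06 under miR-Exo (adjusted p 0.00045) and had -0.14 ± 0.06 under NPPC-Exo (adjusted p 0.0589).

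The chains of the IL-18 receptor at the end of this row parted with erastin. Il18r1, the ligand-binding chain, fell by 1.08 ± 0.28 under miR-Exo (adjusted p 0.00552) and by 0.71 ± 0.27 under NPPC-Exo (adjusted p 0.0483). Il18rap, its accessory chain, rose by 1.22 ± 0.17 under miR-Exo (adjusted p 4.69e-05) and by 1.38 ± 0.17 under NPPC-Exo (adjusted p 1.67e-05).

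**Figure D4:**
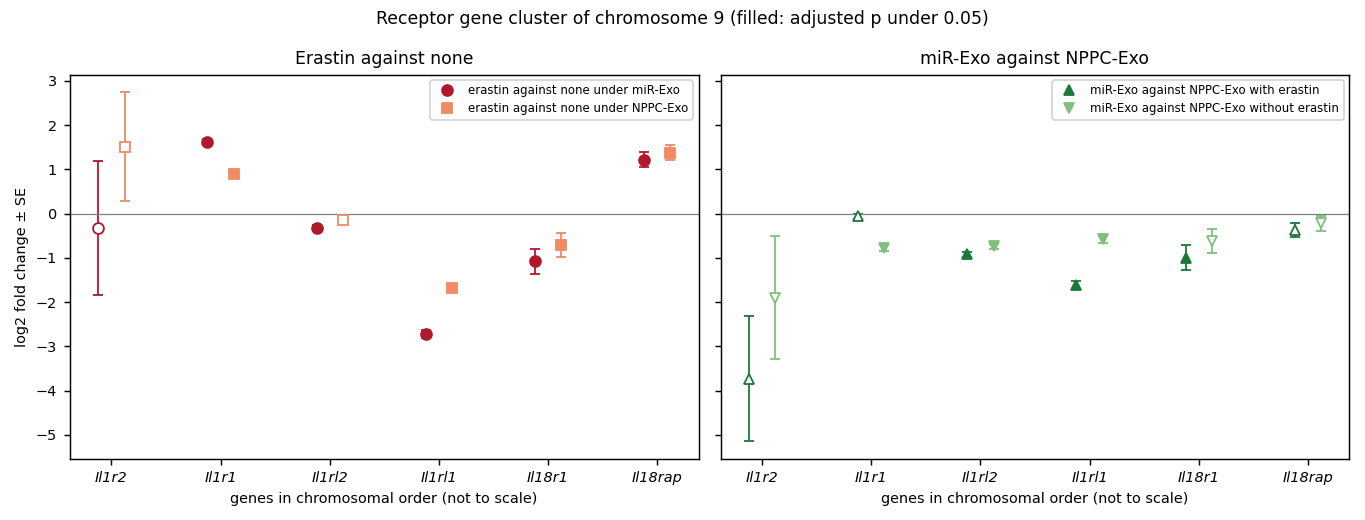
Log2 fold changes ± SE of the receptor genes of chromosome 9 in chromosomal order, not to scale, for erastin against none (left) and miR-Exo against NPPC-Exo (right). Filled symbols had an adjusted p under 0.05. With erastin, Il1r1 and Il18rap lie above 0 and Il1rl1 and Il18r1 below it.

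The rest of the pathway was read from 4 lists, which were chosen with earlier results of these data known. Of 13 family relatives 5 were tested, and with erastin 2 rose and 2 fell under miR-Exo and 2 rose and 1 fell under NPPC-Exo. Their median log2 fold changes were 0.71 and -0.14, beside 0.03 and 0.02 for all genes tested. Of all genes, 24.7% rose and 24.4% fell under miR-Exo, and 21.5% rose and 22.1% fell under NPPC-Exo. Il18bp, which binds and blocks IL-18, rose by 2.07 ± 0.31 under miR-Exo and by 1.24 ± 0.31 under NPPC-Exo (adjusted p 9.00e-05 and 0.00484). For miR-Exo against NPPC-Exo 0 were higher and 2 lower with erastin (median -0.37), and 0 higher and 1 lower without it (median -0.62). Over all genes, 31.3% changed with erastin and 10.7% without it, and these small counts are not read as a result about the list.

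Of 16 genes of the processing and release of IL-1, 8 rose and 3 fell with erastin under miR-Exo (median 0.82), where 24.7% of all genes rose and 24.4% fell. Under NPPC-Exo 8 rose and 4 fell (median 0.89), where 21.5% of all genes rose and 22.1% fell. Nlrp3, a sensor that builds the inflammasome, had 61.2 ± 2.82 CPM with erastin and miR-Exo and 50.2 ± 4.84 with erastin and NPPC-Exo, against 5.54 ± 0.62 with miR-Exo and 8.78 ± 0.67 with NPPC-Exo. It rose by 3.46 ± 0.11 under miR-Exo (adjusted p 2.44e-11) and by 2.52 ± 0.10 under NPPC-Exo (adjusted p 3.98e-10), a difference of 0.95 ± 0.14 (adjusted p 0.00143). Gsdmd, the pore through which IL-1β leaves cells, rose by 1.25 ± 0.05 and 1.15 ± 0.05 in the same order (adjusted p 5.23e-10 and 1.48e-09). Casp8, a caspase that can also cleave pro-IL-1β, rose by 1.48 ± 0.12 under NPPC-Exo (adjusted p 3.49e-07). Under miR-Exo it was also higher with erastin, at 19.5 ± 1.90 CPM against 7.96 ± 1.16 CPM without it. Txnip, which binds NLRP3, fell by 1.09 ± 0.07 under miR-Exo and by 1.38 ± 0.07 under NPPC-Exo (adjusted p 4.91e-08 and 6.30e-09). For miR-Exo against NPPC-Exo 4 were higher and 2 lower with erastin (median 0.08), and 1 higher and 3 lower without it (median -0.01). Over all genes, 31.3% changed with erastin and 10.7% without it, and these counts are not read as a result about the list.

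Of 20 receptor signalling genes, 7 rose and 4 fell with erastin under miR-Exo (median 0.06), and 5 rose and 4 fell under NPPC-Exo (median 0.00). These counts lie near the 49.1% and 43.6% of all genes that changed, and are no result about the list. Irak3, an inhibitor of the IRAK kinases, had 83.9 ± 9.33 CPM with erastin and miR-Exo and 35.3 ± 3.75 with erastin and NPPC-Exo, against 21.2 ± 1.65 with miR-Exo and 18.3 ± 0.51 with NPPC-Exo. It rose by 1.99 ± 0.10 under miR-Exo (adjusted p 2.50e-09) and by 0.95 ± 0.10 under NPPC-Exo (adjusted p 3.37e-06), a difference of 1.04 ± 0.14 (adjusted p 0.000804). Map3k8, a MAP kinase kinase kinase downstream of the receptor, rose by 4.39 ± 0.18 and 2.71 ± 0.17 in the same order (adjusted p 3.47e-10 and 3.26e-08), a difference of 1.67 ± 0.24 (adjusted p 0.00119). For miR-Exo against NPPC-Exo 7 of 20 were higher and 1 lower with erastin (median 0.19), and 1 higher and 1 lower without it (median 0.08). Over all genes, 15.6% were higher and 15.8% lower with erastin, and 4.15% and 6.52% without it. These exosome counts are not read as a result about the list.

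Of 17 tested genes that IL-1 commonly induces in chondrocytes and disc cells, 17 rose with erastin under miR-Exo and 16 under NPPC-Exo, and 0 fell (medians 3.97 and 2.95). Over all genes tested, 24.7% rose under miR-Exo and 21.5% under NPPC-Exo. Nos2, 1 of the 17, passed the filter only through erastin libraries, which favours a rise with erastin. It had 58 counts over the libraries of miR-Exo alone and 0 over those of NPPC-Exo, and Ccl20 had 62 and 11. Sod2, the mitochondrial superoxide dismutase, had 344 ± 5.11 CPM with erastin and miR-Exo and 108 ± 23.1 with erastin and NPPC-Exo, against 19.6 ± 1.06 with miR-Exo and 13.9 ± 1.61 with NPPC-Exo. For miR-Exo against NPPC-Exo with erastin, 11 of 17 were higher and 0 lower (median 0.65), with Il6 at 1.82 ± 0.13 (adjusted p 5.02e-07), Sod2 at 1.67 ± 0.13 (adjusted p 1.20e-06) and Nfkbiz, an NF-κB cofactor, at 1.09 ± 0.10 (adjusted p 6.67e-06). Without erastin 3 were higher and 4 lower (median 0.10). Over all genes tested, 15.6% were higher and 15.8% lower with miR-Exo under erastin, and 4.15% and 6.52% without erastin. These genes also respond to other stimuli, and whether IL-1 induced them here was not tested.

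**Figure D5:**
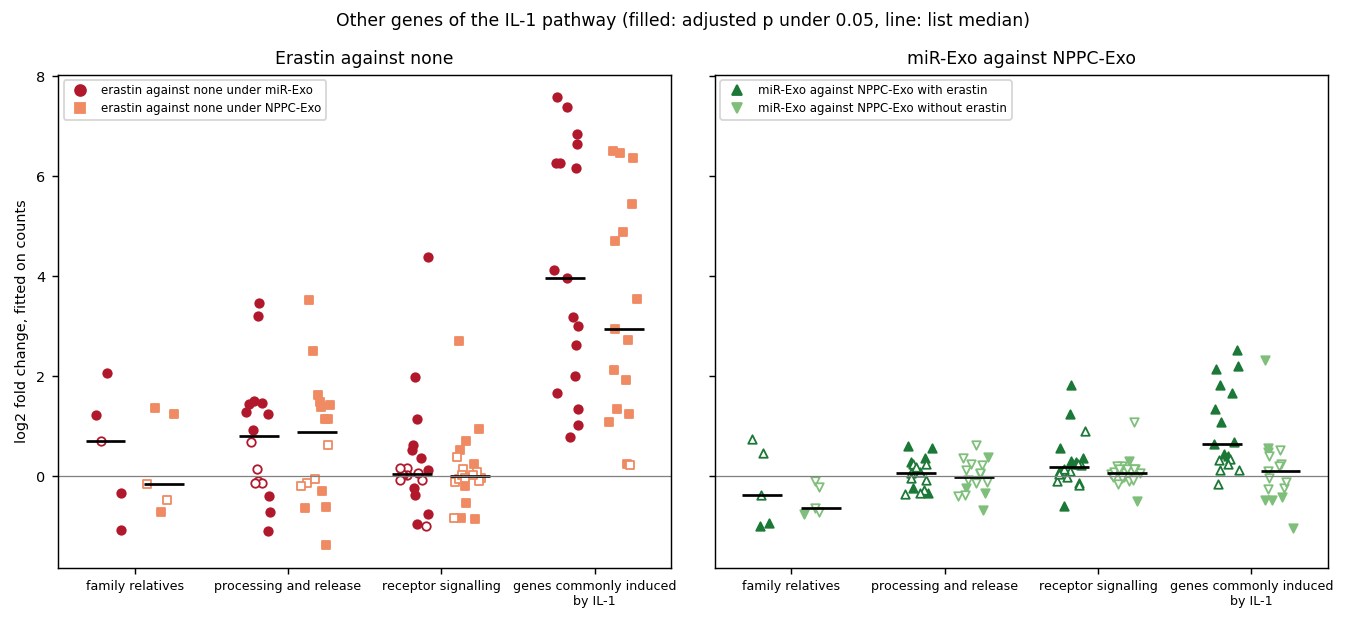
Log2 fold changes of the tested genes of 4 pathway lists for erastin against none (left) and miR-Exo against NPPC-Exo (right). Each symbol is a gene, filled where its adjusted p was under 0.05, and the line is the list's median. Nos2 is not drawn where a group compared held 0 counts. The genes commonly induced by IL-1 have medians of 3.97 and 2.95 with erastin, and those of receptor signalling 0.06 and 0.00.

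Markers of cells that could carry these genes were set beside them. Of 12 monocyte and macrophage markers 9 had a row. Their summed level, like Il1a and Il1b, was highest with erastin and miR-Exo and next with erastin and NPPC-Exo. It was 22.6 to 29.9 CPM with erastin and miR-Exo and 13.3 to 18.2 CPM with erastin and NPPC-Exo, against 10.2 to 11.6 CPM with miR-Exo and 7.81 to 9.69 CPM with NPPC-Exo. Without erastin the sum was thus higher with miR-Exo, whereas Il1a overlapped between these groups and Il1b was at 0 in both. Among the 6 tested, Cd14 and Cd68 rose with erastin under both exosomes and were higher with miR-Exo under erastin, and 0 fell. The median log2 fold change of these 6 was -0.08 with erastin under miR-Exo and 0.75 under NPPC-Exo. For miR-Exo against NPPC-Exo with erastin it was -0.67. Lyz2 and Mrc1, without a call, were lower with erastin and miR-Exo (0.185 and 0.0395 CPM) than with erastin and NPPC-Exo (0.397 and 0.243 CPM). Itgam, also without a call, had 0.0514 CPM with erastin and miR-Exo and 0.790 CPM with miR-Exo alone. Cd68 averaged 2.44 ± 0.51 CPM with erastin and miR-Exo and 1.05 ± 0.27 CPM with erastin and NPPC-Exo, against 1.12 ± 0.24 CPM with miR-Exo and 0.489 ± 0.256 CPM with NPPC-Exo. Cd14 made up most of the sum, with 23.4 ± 3.98, 13.3 ± 2.29, 8.30 ± 0.70 and 7.34 ± 1.01 CPM in the same order of groups. Csf1r, which defines the lineage, was at 0.340 ± 0.104, 0.403 ± 0.125, 0.378 ± 0.060 and 0.274 ± 0.065 CPM in that order, and Adgre1 was at 0 in all but 1 library, of NPPC-Exo, which had 8 counts. The part of such cells in the rise of the ligands was not tested.

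Other cell types were read in the same way. Summed neutrophil markers, 4 of 8 with a row, reached 0.337 CPM at most in any library, and mast cell and basophil markers, 3 of 7 with a row, 1.11 CPM. Of the 8 T cell and innate lymphoid markers 4 had a row, with Cd3g, Cd4 and Cd8a at 0.153 CPM or less on average in every group, and Gata3, also known outside these cells, at 4.43 ± 1.38, 7.33 ± 0.91, 4.05 ± 0.86 and 4.32 ± 0.71 CPM in the order of groups used above. The endothelial sum, from 5 of 8 markers, was lower with erastin through a single gene, Esam: 4.98 to 5.595 CPM with erastin and miR-Exo and 5.68 to 6.42 CPM with erastin and NPPC-Exo, against 124 to 130.4 CPM with miR-Exo and 109.5 to 129 CPM with NPPC-Exo. Esam made up nearly all of that sum without erastin (125 ± 3.14 CPM with miR-Exo and 116 ± 10.6 CPM with NPPC-Exo). Tek, of the same list, rose with erastin by 0.98 ± 0.20 under miR-Exo (adjusted p 0.00109) and by 1.32 ± 0.20 under NPPC-Exo (adjusted p 0.000126), and Vwf was not called, while Kdr was at 0.047 ± 0.082 CPM or less and Tie1 at 0.021 ± 0.036 CPM or less in every group. The part of endothelial cells in the fall of Il1rl1 was not tested.

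Each member's closest genes by pattern were taken as the highest Pearson r of log2 CPM over the 12 libraries among 11557 genes. These values describe 12 libraries that share their 4 group means and carry no p. For Il1rl1 they were the smooth muscle actin Actg2 and the actin-binding Tagln (r = 0.997 each) and Lhfpl6 (0.996). Tagln had 1720 CPM with erastin and miR-Exo and 3177 CPM with erastin and NPPC-Exo, against 5022 CPM with miR-Exo and 6246 CPM with NPPC-Exo. Il1rap was closest to Wdr75 (0.996), Ank2 (0.995) and the collagen gene Col4a3 (0.995). For Il1r1 the nearest were Sulf1, an enzyme that trims heparan sulphate (0.987), Rgs3 (0.986) and Mmd (0.985).

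On the ligand side, Il1a was closest to C1s, a protease of the complement cascade (0.996), Nfya (0.995) and Klhl41 (0.995). C1s had 147 CPM with erastin and miR-Exo and 72.4 CPM with erastin and NPPC-Exo, against 8.44 CPM with miR-Exo and 8.36 CPM with NPPC-Exo. Il1b was nearest to Plpp3 (0.994), the kinase gene Jak2 (0.991) and Fgr (0.991), and Il1rn to Reep1 (0.984) and Plat, the tissue plasminogen activator (0.978). The closest genes to Il33 had lower values, with Scfd2 at 0.927, Ywhaq at 0.920 and Osbpl3 at 0.916.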

How the data were processed

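Total RNA of 12 libraries was sequenced after strand-marking library preparation, per the labels. The authors deposited raw counts per gene and, beside them, FPKM per gene and library, rounded to 2 decimals, per the file headers. StringTie and the mRatBN7.2 build are named in the submitters' processing notes; for the aligner, counting tool, strand setting and filters, the entry is: not given in the sources used here. Coordinates of the deposited table are not used here, and RefSeq's GRCr8 tables served only for promoters, names and gene order. The members, lists and tests were chosen with earlier results of these data known. Every member had a single row. The replicate numbers paired the 2 groups without erastin by the data alone, with deviations from the group means correlating at 0.422, 0.226 and 0.140 in the 3 pairs; the labels state no pairing.

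Genes were kept by filterByExpr, which left 15650, and scaled by trimmed means of M values (factors 0.877 to 1.15). The counts were fitted on 4 group means with edgeR 4.0.16 in R 4.3.3, in the quasi-likelihood test, with Benjamini-Hochberg adjustment over all genes tested. SE is the fold change divided by the root of F. All 8 members passed the filter, Il1b and Il1r2 through erastin libraries. FPKM, which the authors scaled by library, was used for levels between genes. Named were all members, up to 4 list genes per comparison with the smallest adjusted p, and 3 genes most like each member that reached 1 CPM, of which 1 gene is not reported here. Alternatives were other scaling and filters, DESeq2 1.42.0, limma 3.58.1 on log2(FPKM + 1) or log2(FPKM + 0.1), halved counts, a replicate block, fewer groups, and each library left out. The fit was tested on simulated data.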

Additional observations from a re-analysis of the deposited data

Results flagged for a closer look

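For 3 members the effect of erastin differed between the kinds of exosome in edgeR's interaction test, with erastin raising or lowering the gene under miR-Exo relative to its effect under NPPC-Exo. The log2 difference was 1.36 ± 0.33 for Il1rn, with an effect of 1.45 under miR-Exo and 0.09 under NPPC-Exo. It was 0.71 ± 0.09 for Il1r1, with 1.62 under miR-Exo and 0.90 under NPPC-Exo, and -1.03 ± 0.13 for Il1rl1, with -2.71 under miR-Exo and -1.68 under NPPC-Exo.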

How the results depend on the processing

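Over the alternatives, 765 single-gene results kept their direction and side of the threshold, 26 came to pass it, 14 no longer passed and 10 turned sign. The number of members called for miR-Exo against NPPC-Exo with erastin was 5, and 3 to 7 with a library left out, at 7 without NPPC-Exo replicate 3 and at 3 without erastin and NPPC-Exo replicate 2 or without erastin and miR-Exo replicate 2. Library size alone moved the median of all genes to 0.33 with erastin under miR-Exo, 0.30 under NPPC-Exo and 0.11 for the exosomes with erastin (log2), and the share of higher calls among all calls to 76.4%, 77.8% and 68.6%, from 50.4%, 49.3% and 49.7%; without erastin that share was 68.7%, from 38.9%. Leaving out a library moved the genes called without erastin to between 970 and 1854 (1669 with all libraries) and those of the interaction to between 1205 and 2419 (2006 with all).

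The values that turned sign had not been called. Il1r1 for the exosomes with erastin was 0.041 with library size alone, 0.036 on log2(FPKM + 1) and 0.037 on log2(FPKM + 0.1). Il1rn with erastin under NPPC-Exo ranged from -0.084 (without erastin and NPPC-Exo replicate 2) to 0.26 with a library left out, and was -0.0036 without NPPC-Exo replicate 1. Il1a for the exosomes without erastin ranged from -1.11 to 0.36 (without NPPC-Exo replicate 2), and was 0.23 without miR-Exo replicate 2. Il1r2 with erastin under miR-Exo ranged from -1.21 to 3.96 (without miR-Exo replicate 3) and was 0.23 without erastin and miR-Exo replicate 1, and its interaction ranged from -2.73 to 2.45 (without miR-Exo replicate 3). The cause was not tested.

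Over the 15 same-numbered pairs that include an erastin library, deviations correlated between -0.24 and 0.19, so the numbers did not pair those comparisons. With the replicate block in the fit of all groups the members called stayed at 6, 5, 5, 3 and 3, for erastin under miR-Exo, erastin under NPPC-Exo, the exosomes with and without erastin, and the interaction, and no member's call changed. With the block in a fit of only the groups without erastin, an alternative chosen after seeing the data, 3 members were called, with Il1r1 at -0.77, Il1rl1 at -0.56 and Il1rap at -0.36, and 1501 genes in all. Depth limits Il1a without erastin, Il1b and Il1r2, which had at most 89 counts in any library in the case of Il1b and 34 for Il1r2.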
